A study of Mus musculus with 16 samples.

Results

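This comparison asked what 7 days of 4-hydroxytamoxifen, the oestrogen receptor ligand used as the inducing drug, did to the skin of mice that carry no transgene. It rests on 5 of the 16 arrays of the series, namely 2 arrays of wild-type C57BL/6 skin at day 7 and 3 arrays of wild-type C57BL/6 skin at day 0, chosen by genotype and day in their titles. The study as a whole measured total RNA of whole skin on Affymetrix Mouse Expression Set 430 A arrays, in 2 genotypes at 0, 1 and 7 days of the drug. The other groups used here were wild-type C57BL/6 skin at day 1 (3 arrays) and skin of the transgenic line D2 K14deltaNB-cateninER at day 0 (2 arrays) and day 7 (3 arrays). In that line a beta-catenin without its N-terminus is fused to the oestrogen receptor's ligand-binding domain. It is expressed under the keratin 14 promoter, hence in basal epidermal cells and the outer root sheath of the hair follicle. All mice at day 1 and day 7 received the drug, and no group received vehicle alone, so the drug, its application and the days that passed cannot be told apart. The labels give no age, sex, hair cycle stage or hour of collection. They speak of a mouse for both day 7 arrays and of mice for the day 0 and transgenic arrays, which may mean pooled animals. Where arrays of a group do not come from separate animals, the p-values measure only the spread between these RNA samples.

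Whole skin holds the epidermis and its appendages, the dermis with fibroblasts, vessels, nerves and immune cells, fat, and in the mouse a thin sheet of skeletal muscle. Resident macrophages of the dermis clear debris and take up ligands through scavenger, complement and Fc receptors. Skin cells also run a circadian clock, in which Clock and Arntl proteins activate the Per, Cry and Nr1d genes and the output factors Dbp, Tef and Hlf, and the Per and Cry proteins repress their own activators. In whole skin a change in the number of cells of a type and a change in RNA per cell cannot be told apart.

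Of 9058 genes tested, 1036 (11.4%) passed the threshold between day 7 and day 0, an adjusted p under 0.05 in limma with Benjamini-Hochberg adjustment over all genes tested. Of these, 496 (5.48%) were higher at day 7 and 540 (5.96%) were lower, and 166 changed by at least 2-fold. The largest rises were in tissue kallikreins and the epidermal keratin Krt2, followed by Aqp5, Myo1f, Sprr1b, Akr1cl, Agt and Krt6b. A broad set of macrophage markers rose. The largest falls were in Hamp2, the clock genes Per2 and Dbp, and the Wnt-binding protein Sfrp2. Values below are scaled intensities, listed by array in the order of the replicate numbers. Changes are day 7 minus day 0 on the log2(intensity + 32) scale, with the fit's standard error (SE). The added 32 understates the fold of genes that start near 0. Over all genes tested the median change was -0.03, and 2404 of the 9058 had an unadjusted p under 0.05. The arrays of the 2 days did not overlap in 3986 genes (44%), among them all 1036 called.

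The number of genes called rests on both day 7 arrays. Without replicate 1 of day 7 it was 328, without replicate 2 of day 7 it was 447, and without replicate 2 of day 0 it was 647. Replicate 1 of day 7 had the lowest trimmed mean intensity of the 16 arrays (359, against up to 548). Without scaling to a common trimmed mean 257 genes passed, 64.2% of them higher, against 47.9% higher with scaling. Replicates correlated at 0.982 to 0.985 within day 0 and at 0.985 within day 7. The ratio of 3′ to 5′ signal was 0.965 to 1.26 for Gapdh and 1.52 to 1.71 for actin on the day 0 arrays, and 0.913 to 0.949 and 1.35 to 1.48 on the day 7 arrays. The groups did not overlap in either ratio, and the part of RNA quality in the results was not tested. Of 545 other probe sets for the called genes, 452 changed in the same direction and 4 passed the threshold in the opposite direction.

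The promoters of the kallikreins that rose most are shown because these genes lie in 1 cluster and rose together. Klk1 (kallikrein 1, a secreted serine protease that releases kinins) and the rodent Klk1b genes belong to a run of 10 consecutive protein-coding genes on chromosome 7, all of them kallikreins. Other kallikreins lie between the 4 shown, of which Klk1b5 and Klk1b16 were below the filter on low values. The windows cover 250 bases before to 50 bases after the gene start in the RefSeq annotation of GRCm38.p6, all on the plus strand. That of Klk1 is chr7:44225110-44225409, that of Klk1b21 chr7:44102042-44102341, that of Klk1b24 chr7:44187986-44188285 and that of Klk1b27 chr7:44052040-44052339. Capitals mark the longest run of bases shared by all 4 windows, 13 bases long.
Klk1: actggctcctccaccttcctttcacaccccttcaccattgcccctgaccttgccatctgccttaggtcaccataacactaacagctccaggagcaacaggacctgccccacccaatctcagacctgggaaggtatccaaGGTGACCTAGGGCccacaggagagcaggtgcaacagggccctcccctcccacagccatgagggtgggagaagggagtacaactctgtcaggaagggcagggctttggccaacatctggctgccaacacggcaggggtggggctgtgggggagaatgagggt
Klk1b21: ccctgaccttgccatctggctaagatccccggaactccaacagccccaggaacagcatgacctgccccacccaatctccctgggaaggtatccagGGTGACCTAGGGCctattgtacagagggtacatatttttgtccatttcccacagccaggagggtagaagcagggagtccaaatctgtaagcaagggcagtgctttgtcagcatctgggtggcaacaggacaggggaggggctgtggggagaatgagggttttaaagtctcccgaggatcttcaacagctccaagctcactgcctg
Klk1b24: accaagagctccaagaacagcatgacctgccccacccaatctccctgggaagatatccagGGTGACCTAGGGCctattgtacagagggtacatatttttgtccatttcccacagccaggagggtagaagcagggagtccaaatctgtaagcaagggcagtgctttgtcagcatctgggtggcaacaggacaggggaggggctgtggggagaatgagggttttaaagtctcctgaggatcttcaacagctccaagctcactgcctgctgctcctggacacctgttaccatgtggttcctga
Klk1b27: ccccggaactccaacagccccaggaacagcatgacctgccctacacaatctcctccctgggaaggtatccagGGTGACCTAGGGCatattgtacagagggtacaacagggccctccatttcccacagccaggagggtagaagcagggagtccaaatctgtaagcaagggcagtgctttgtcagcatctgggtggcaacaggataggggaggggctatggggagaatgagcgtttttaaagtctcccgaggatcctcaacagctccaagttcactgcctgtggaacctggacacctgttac
Klk1 shared 81.2% to 81.8% of aligned bases with the other 3 windows, and those 3 shared 91.3% to 97.7% with each other. The palindromic oestrogen response element, searched on both strands, was in 0 of the 6 tested kallikreins' windows and in 0.07% of all 32851 promoter windows of this length. It was also in 0 of the 10 oestrogen-responsive genes with a window. An element this rare would seldom be met in 6 windows, so nothing is read from its absence.

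The promoters of 3 clock genes that fell are shown with the sites through which the clock is known to act, the E-box CACGTG bound by Clock and Arntl and the D-box TTATGTAA bound by Dbp, Tef and Hlf. Both motifs were searched on both strands, and capitals mark them. The windows of Tef (chr15:81802423-81802722, plus strand) and Per1 (chr11:69098699-69098998, plus strand) hold an E-box. That of Per3 (chr4:151044616-151044915, minus strand) holds a D-box at 2 places. Tef and Per1 each have 2 starts in the table, and the window of the start listed first is shown.
Tef: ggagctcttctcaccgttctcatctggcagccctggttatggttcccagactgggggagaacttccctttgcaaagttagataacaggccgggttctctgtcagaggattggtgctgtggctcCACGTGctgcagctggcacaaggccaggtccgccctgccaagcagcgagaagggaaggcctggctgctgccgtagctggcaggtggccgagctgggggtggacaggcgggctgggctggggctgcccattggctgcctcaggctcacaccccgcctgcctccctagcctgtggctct
Per1: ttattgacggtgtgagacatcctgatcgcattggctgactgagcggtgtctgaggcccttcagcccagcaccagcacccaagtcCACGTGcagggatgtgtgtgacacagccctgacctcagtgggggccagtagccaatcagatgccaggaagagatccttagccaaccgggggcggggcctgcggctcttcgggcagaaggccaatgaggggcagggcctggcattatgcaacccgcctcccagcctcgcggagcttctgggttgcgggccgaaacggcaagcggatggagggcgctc
Per3: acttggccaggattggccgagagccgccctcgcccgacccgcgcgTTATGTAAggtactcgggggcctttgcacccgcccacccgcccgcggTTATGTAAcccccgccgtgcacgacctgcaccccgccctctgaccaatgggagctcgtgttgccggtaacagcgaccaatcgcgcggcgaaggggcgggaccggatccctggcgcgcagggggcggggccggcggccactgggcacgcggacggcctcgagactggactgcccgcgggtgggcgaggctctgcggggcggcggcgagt
Of the 15 tested clock genes 13 had a promoter window, and an E-box was in 3 of these 13 (Per1, Cry1 and Tef) and a D-box in 1 (Per3). A gene was counted when any of its windows held the motif. Counted in this way over all 27025 genes with a window, an E-box was in 8.09% and a D-box in 1.11%. A match describes the letters in the window and does not show that a factor is bound there.

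Kallikreins gave the largest change in the comparison. Klk1 read 2.02, 3.04 and 40.9 at day 0, 1633, 1764 and 1571 at day 1, and 5549.7 and 4754 at day 7. Both day 7 arrays were far above all day 0 arrays, and the day 1 arrays lay between. The change to day 7 was 6.87 ± 0.29 (SE, limma adjusted p = 1.33e-09), and the other 2 probe sets of Klk1 gave 6.58 and 6.21.

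Its neighbours Klk1b21, Klk1b24 and Klk1b27, proteases of the rodent-specific branch, followed the same order of days. Klk1b21 read 49.3, 35.3 and 53.4 at day 0, 188, 362 and 188 at day 1, and 1250.3 and 1455 at day 7, a change of 4.15 ± 0.36. Klk1b24 read 51.8, 38.5 and 50.1 at day 0, 209, 224 and 154 at day 1, and 812 and 865 at day 7, a change of 3.47 ± 0.24. Klk1b27 was near 0 at day 0 (3.82, 3.53 and 3.20), read 25.6, 53.0 and 27.2 at day 1, and reached 427 and 553 at day 7, a change of 3.87 ± 0.37. In none of these genes did any 2 of the 3 days overlap. Klk6, a protease of the kallikrein family expressed in epidermis, read 275, 304 and 239 at day 0 and 835 and 616 at day 7, a change of 1.31 ± 0.24 (adjusted p = 0.00325). Klk8, another epidermal member, did not pass the threshold, with a change of -0.26 ± 0.12.

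In all, 5 of the 6 tested kallikreins of the list rose and 0 fell, with a median change of 3.67. A further 6 of the 12 on the array lay below the filter on low values, the highest of them at 115. The summed intensity of the 6 tested members was 1386 to 1488 at day 0, 2806 to 3361 at day 1 and 9080.4 to 9772 at day 7. Klk1b genes are near-identical copies and the probe set used for Klk1 can bind several transcripts, so the members' values are not fully separate measurements. With replicate 1 of day 7 left out, 4 of the 6 passed, Klk6 being lost with an adjusted p of 0.06.

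Because kallikreins of this cluster and Aqp5 are abundant in salivary and sweat glands, markers of those tissues were read on the same arrays. Aqp5, a water channel of gland cells, read 44.4, 23.6 and 19.5 at day 0 and 226 and 378 at day 7, a change of 2.43 ± 0.32 (limma adjusted p = 0.00037). It was 1 of the 5 tested markers of sweat, mammary and salivary gland to pass, and the summed intensity of those 5 was 1566 to 1700.1 at day 0 and 1753 to 1834 at day 7. At day 1, 2 of the 5 rose and 1 fell, with a sum of 1437 to 2097. Another 8 of the 13 markers were below the filter. Their highest value was that of the keratin Krt18, 514 on replicate 1 of day 1, where Krt8 and Krt19 also had their highest values (625 and 415). On the day 0 and day 7 arrays Krt18 read no more than 103. The salivary genes Smr3a and Dcpp1 read no more than 8.31 and 13.0 on any of the 8 wild-type arrays, and the milk protein gene Csn2 no more than 76.9. The part of gland tissue in the kallikrein result was not tested beyond these values.

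**Figure D1:**
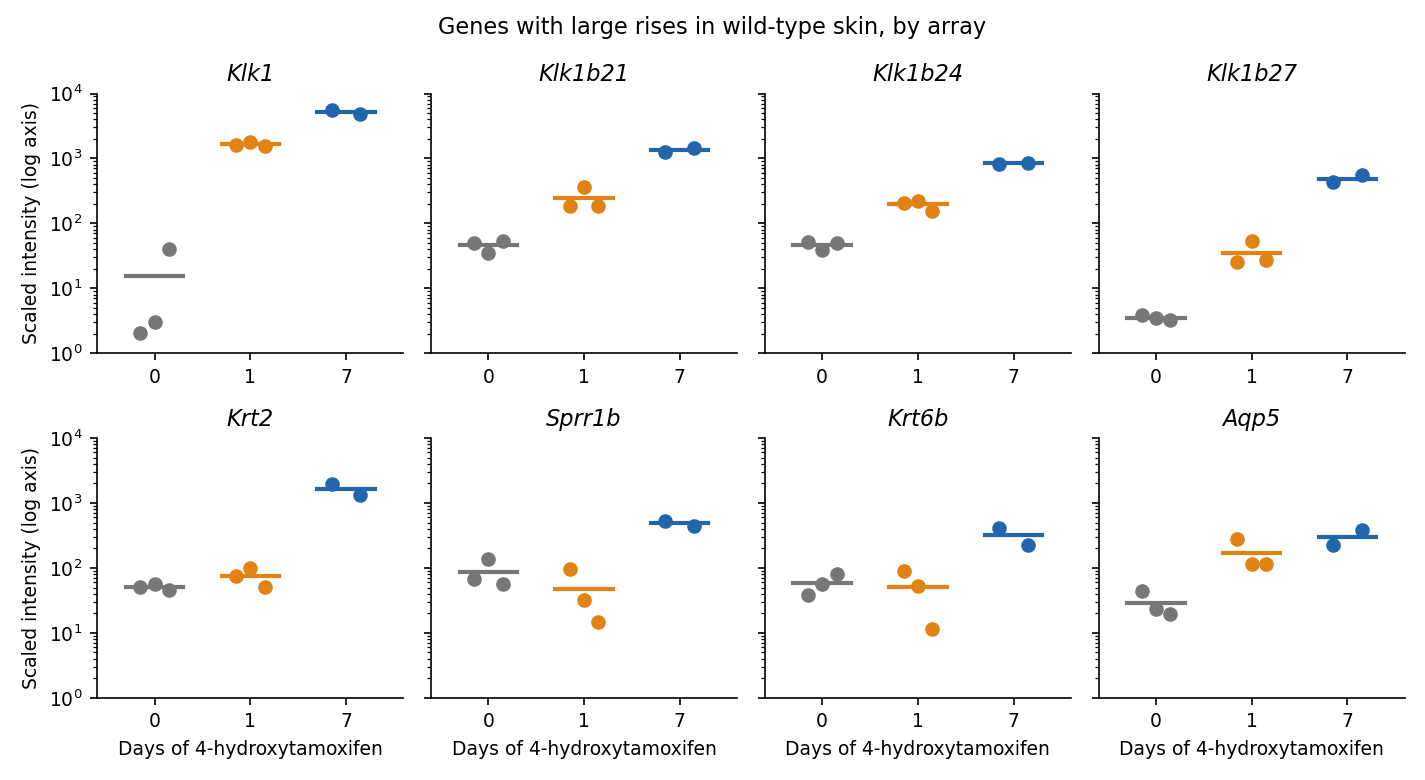
Scaled intensity of 8 genes with large rises, on a log axis, in wild-type skin at 0, 1 and 7 days of 4-hydroxytamoxifen. Points are arrays (3, 3 and 2) and lines are group means. In the 4 kallikreins the day 1 arrays lie between day 0 and day 7, whereas in Krt2, Sprr1b and Krt6b only the day 7 arrays stand above the rest.

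In the epidermis, Krt2, the keratin of the upper suprabasal layers, rose more than any gene outside the kallikreins. It read 51.2, 57.6 and 45.2 at day 0, 74.5, 98.6 and 50.2 at day 1, and 1975 and 1328 at day 7. Day 0 and day 1 overlapped, and both day 7 arrays were far above them. The change from day 0 was 4.31 ± 0.32 (limma adjusted p = 7.77e-07) and that from day 1 was 3.98 (adjusted p = 1.22e-05). The other 16 tested suprabasal and cornified envelope genes did not follow Krt2 from day 0 to day 7. Of the 17 in the list 1 rose and 2 fell, Ppl (periplakin, a cornified envelope protein, -0.58 ± 0.09) and Cdsn (corneodesmosin, which holds corneocytes together, -0.43 ± 0.12). The median of the list was -0.11. From day 0 to day 1, 8 of the 17 fell and 0 rose, with a median of -0.26. From day 1 to day 7 the median was 0.34 and 1 rose past the threshold. At an unadjusted p under 0.05, 12 of the 17 were higher and 0 lower from day 1 to day 7, beside 1702 of all 9058 genes in either direction. Cdsn was lost without scaling and when any 1 of the 5 arrays compared was left out. Krt10, the main suprabasal keratin, read 16102, 14170.0 and 14926 at day 0 and 16737 and 14095 at day 7, so its groups overlapped.

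Of 12 wound-type keratins and alarmins, 4 rose and 0 fell, with a median change of 0.37. Sprr1b, a cornified envelope precursor induced in stressed epidermis, read 67.5, 137 and 57.3 at day 0, 95.8, 32.2 and 14.8 at day 1, and 530.2 and 446 at day 7, a change of 2.18 ± 0.39 (limma adjusted p = 0.00257). Krt6b read 38.1, 57.5 and 79.9 at day 0 and 416 and 224 at day 7 (1.93 ± 0.40), and its partner Krt16 read 181, 275 and 172 at day 0 and 584 and 447 at day 7 (1.20 ± 0.23). These keratins pair in wounded and fast-growing epidermis. Stfa3, a stefin that inhibits cysteine proteases, read 229.9, 234 and 241 at day 0 and 889 and 910.3 at day 7, a change of 1.80 ± 0.36. All 4 genes had separate groups at day 0 and day 7. Without replicate 1 of day 7 Krt6b and Krt16 were lost, with adjusted p of 0.11 and 0.066.

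None of Krt2, Sprr1b, Krt6b, Krt16 and Stfa3 was called higher at day 1. Between day 1 and day 7, for which 3.15% of all genes passed (1.68% higher and 1.47% lower), 5 of the 12 wound-type genes rose. Between day 0 and day 1, for which 22.3% of all genes passed (10.1% higher and 12.3% lower), 1 rose and 5 fell, Krt16 among the latter at -0.85. Tnfrsf12a, the receptor of the cytokine TWEAK, read 190.1, 171 and 291 at day 0, 78.3, 55.6 and 55.4 at day 1, and 514 and 248 at day 7. It fell by day 1 (-1.37) and rose from day 1 to day 7 (2.05), and its change from day 0 to day 7 did not pass (0.68, adjusted p = 0.0927). The comparisons of day 7 with day 0 and with day 1 share the day 7 arrays, and those of day 1 and day 7 with day 0 share the day 0 arrays, so their values are set side by side only.

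In the basal layer 1 of 13 tested genes rose and 4 fell, with a median of -0.34. The falls were in the anchorage of basal cells to the basement membrane. Dst, whose epithelial form is the hemidesmosomal protein BPAG1, read 6958, 6606 and 6550.5 at day 0 and 3568 and 3720.3 at day 7 (-0.87 ± 0.09, limma adjusted p = 4.05e-05). Lamb3, a chain of laminin-332, changed by -0.60 ± 0.13 and Col17a1, the transmembrane collagen of the hemidesmosome, by -0.40 ± 0.09. Itgb1, the beta-1 integrin, was the member that rose, by 0.42 ± 0.13, a call lost under 9 of 16 alternative settings. The basal keratins Krt5 and Krt14 did not pass, with changes of -0.16 and -0.02. With replicate 1 of day 7 left out, Lamb3 and Itgb1 were lost (adjusted p = 0.067 and 0.216), and without replicate 2 of day 7 Col17a1 and Itgb1 (0.155 and 0.141).

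The macrophage and monocyte markers rose together, 22 of 24 past the threshold and 0 lower, with a median change of 1.06. The summed intensity of the list was 35693 to 40729.6 at day 0, 67946 to 74434 at day 1 and 73902 to 73967 at day 7, with no overlap between day 0 and either later day. Fcgr3, an Fc receptor for IgG, read 714, 734 and 639 at day 0, 1713, 1622 and 1576 at day 1, and 2097 and 1960.2 at day 7, a change of 1.503 ± 0.20 (limma adjusted p = 0.00037). The mannose receptor Mrc1 read 2469.9, 2091 and 2651 at day 0, 6108, 6148 and 6273 at day 1, and 5671 and 5886 at day 7, a change of 1.26 ± 0.19. Every array at day 1 and day 7 was above every day 0 array for both receptors.

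C1qa, a chain of the complement protein C1q, changed by 1.52 ± 0.30, and Aif1, a calcium-binding protein of macrophages, by 1.26 ± 0.18. Ms4a7, a membrane protein of mature macrophages, read 721, 526 and 459 at day 0 and 1363 and 1534 at day 7. Csf1r, the receptor for the growth factor that maintains macrophages, rose less, by 0.64 ± 0.15, from 5421, 4905 and 4385 to 7740.5 and 7492. Itgam, the integrin chain shared by monocytes and neutrophils, was low throughout, at 69.8, 54.7 and 95.2 at day 0 and 208 and 209 at day 7. The markers that did not pass were Msr1 (scavenger receptor A, 0.21) and Lyve1 (a hyaluronan receptor of lymphatic vessels and some macrophages, 1.04, adjusted p = 0.119). Lyve1 read 315, 349 and 1365 at day 0, 3766, 3543 and 3429 at day 1, and 1047 and 1232 at day 7, so the day 0 and day 7 groups overlapped. Without replicate 1 or replicate 2 of day 7, 11 and 12 of the 24 markers passed, and without scaling 16 did.

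Markers of other immune cells are given by list. Of the T cell markers 0 of 6 tested passed in limma, of the B cell markers 0 of 3 and of the mast cell markers 0 of 5, and in these 3 lists 0 had an unadjusted p under 0.05. Below the filter were 7 of the 13 T cell markers on the array, 5 of 8 B cell, 6 of 11 mast cell and 7 of 11 neutrophil markers. The counts of these lists thus rest on few genes. Of 4 neutrophil markers 1 rose, Csf3r (the G-CSF receptor, 0.89 ± 0.14), and the summed intensity of the 4 was 409.5 to 525 at day 0 and 751 to 774 at day 7. Of 7 genes of antigen presentation by MHC class II 1 rose, the cathepsin Ctss, which is also a macrophage marker here. All 7 had a positive change, with a median of 0.41 and 4 at an unadjusted p under 0.05, and their sum was 24966 to 28729 at day 0 and 35399 to 35918 at day 7. Of 8 Langerhans and dendritic cell markers 1 rose (Clec10a, 1.20), 4 had a positive change, and the median was 0.12. At an unadjusted p under 0.05, 1 of the 8 was higher and 2 were lower. The sum of the 8 was 5633 to 6636 at day 0 and 7412 to 8592 at day 7. The sums of the neutrophil, MHC class II and Langerhans lists did not overlap between the days, nor did the arrays in 44% of all single genes tested. A sum weighs the brightest members most. Over all genes 11.4% were called, so 1 call in a list this short says little about the list. Of 21 interferon response genes 0 passed, and 4 had an unadjusted p under 0.05, beside 2404 of all 9058 genes. Pf4, a chemokine of platelets that macrophages also express, read 1849, 1498 and 2306 at day 0 and 3787 and 4429 at day 7, a change of 1.13 ± 0.21. Ccr1, a chemokine receptor of myeloid cells, read 64.0, 57.0 and 129 at day 0 and 369 and 368 at day 7 (1.85 ± 0.42). Myo1f, a myosin of haematopoietic cells, read 24.8, 82.5 and 22.2 at day 0 and 356 and 247 at day 7 (2.22 ± 0.45). Ccr1 was lost without either day 7 array (adjusted p = 0.077 and 0.064), and Myo1f without replicate 1 of day 7 (0.077).

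Among 17 chemokines 4 rose and 0 fell. Ccl8, an attractant of monocytes and T cells, was already abundant at day 0 (3955, 3713 and 3371), read 7778, 6898 and 5657 at day 1 and 11369 and 10238 at day 7, and rose by 1.55 ± 0.28 (limma adjusted p = 0.00268). The monocyte attractants Ccl2, Ccl7 and Ccl12 went another way, with their highest values at day 1. Ccl2 read 66.8, 83.7 and 110.2 at day 0, 422, 511 and 962 at day 1, and 229 and 229 at day 7. Ccl12 read 91.6, 86.2 and 124 at day 0, 533, 709 and 769.7 at day 1, and 185 and 194 at day 7. In each of these 3 chemokines the day 7 arrays lay above all day 0 arrays and below all day 1 arrays. Their falls from day 1 to day 7 were past the threshold, at -1.26 for Ccl2, -1.52 for Ccl7 and -1.65 for Ccl12, while their day 7 levels stayed above day 0 by 1.15, 0.85 and 0.75. Of 16 alternative settings, the call at day 7 against day 0 was lost under 11 for Ccl7, under 4 for Ccl2 and under 3 for Ccl12. Without either day 7 array 1 of the 17 chemokines passed, and without replicate 2 of day 0 or without scaling 2 did.

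Some other genes with large changes at day 1 are given for all 3 days. Pgf, placental growth factor, read 31.8, 6.28 and 7.29 at day 0, 174, 255 and 332 at day 1, and 64.9 and 82.4 at day 7, and fell from day 1 to day 7 (-1.40, limma adjusted p = 0.0115). Lrg1, an acute-phase glycoprotein, read 572, 299 and 1066 at day 0, 2998, 2313 and 2175 at day 1, and 1313 and 1604 at day 7, and was above day 0 by 1.30 ± 0.33 (adjusted p = 0.0181). Its change from day 1 to day 7 did not pass (-0.75, adjusted p = 0.224). Haptoglobin (Hp) and the chitinase-like protein Chil3, both higher at day 1 (1.03 and 2.09), did not pass at day 7 against day 0, with changes of 0.44 and 0.38. From day 1 to day 7 Chil3 fell (-1.71, adjusted p = 0.00728) and Hp did not pass (-0.60, adjusted p = 0.222). Maff, a small transcription factor of the stress response, read 183, 197 and 197 at day 0, 8.32, 39.5 and 47.8 at day 1 and 63.6 and 59.5 at day 7, a change of -1.26 ± 0.26 from day 0 to day 7, beside a change of -1.87 at day 1, and its change from day 1 to day 7 did not pass (0.61, adjusted p = 0.217). At day 7 the calls of Pgf, Lrg1 and Maff were lost without replicate 1 (adjusted p = 0.052, 0.077 and 0.0501) and without replicate 2 (0.09, 0.129 and 0.053).

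**Figure D2:**
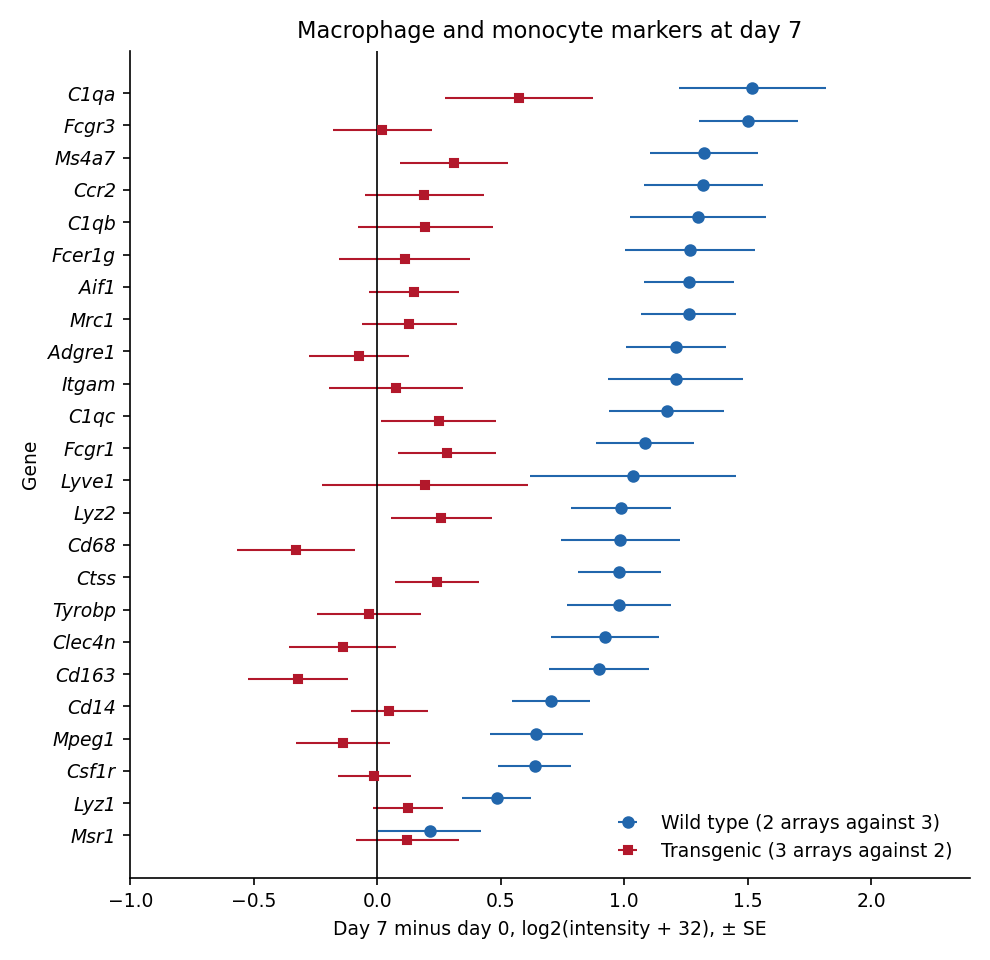
Change from day 0 to day 7 of 24 macrophage and monocyte markers, as log2(intensity + 32) with the standard error of the fit, in wild-type skin (circles, 2 arrays against 3) and transgenic skin (squares, 3 arrays against 2). In wild-type skin 22 of the 24 passed the threshold, whereas in transgenic skin 0 did.

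The clock genes had the lowest median change of all gene lists read. Of 15 tested, 8 fell and 2 rose, with a median change of -0.89, and their summed intensity was 16180 to 16921 at day 0, 12178 to 13263 at day 1 and 8492 to 9470.2 at day 7. Per2, a repressor of the clock, read 410.3, 550.0 and 593 at day 0, 267, 306 and 238 at day 1, and 54.0 and 62.1 at day 7, a change of -2.60 ± 0.16 (limma adjusted p = 1.33e-07). Dbp, an output factor that binds D-boxes, read 2359, 1812 and 1842 at day 0, 1572, 1660.0 and 1416 at day 1, and 469 and 318 at day 7, a change of -2.27 ± 0.20. In both genes no array of any day overlapped with another day.

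The related output factors Tef and Hlf fell, with changes of -1.29 ± 0.09 and -1.25 ± 0.13. Tef, whose promoter with an E-box is shown above, read 4163, 3685 and 3495 at day 0 and 1600.0 and 1452 at day 7. Per3, with D-boxes in its promoter, read 553, 684 and 605 at day 0 and 201 and 223 at day 7 (-1.40 ± 0.12). Nr1d2, a repressor of Arntl, read 2646, 2967 and 2889 at day 0 and 1224 and 1504 at day 7 (-1.04 ± 0.14). The repressor genes Cry1 and Per1 fell, with changes of -0.89 ± 0.21 and -0.68 ± 0.20, from 120.1, 174 and 117 to 46.2 and 72.5 and from 539.8, 501 and 951 to 408 and 364. The 8 genes that fell thus include repressors and outputs of the clock, though the Per1 call was lost under 8 of 16 alternative settings.

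The activators went the other way. Arntl read 162, 194 and 246 at day 0, 186, 207 and 199 at day 1, and 391 and 433 at day 7, a rise of 0.95 ± 0.18 (limma adjusted p = 0.00336). Clock read 273, 267 and 249 at day 0 and 378 and 414 at day 7, a rise of 0.54 ± 0.12. The 5 clock genes that did not pass were Cry2 (-1.05, adjusted p = 0.0546), Rora (-0.42), Bhlhe40 (-0.39), Nr1d1 (0.32) and Nfil3 (0.57). Cry1 was lost without replicate 1 of day 7 (adjusted p = 0.17), Clock without replicate 2 of day 7 (0.087) and without scaling (0.33), and Per1 without either day 7 array (0.121 and 0.183), while the count without either day 7 array was 2 higher and 7 lower. The hour at which skin was taken is not in the labels, so the days and the hours of collection cannot be told apart.

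**Figure D3:**
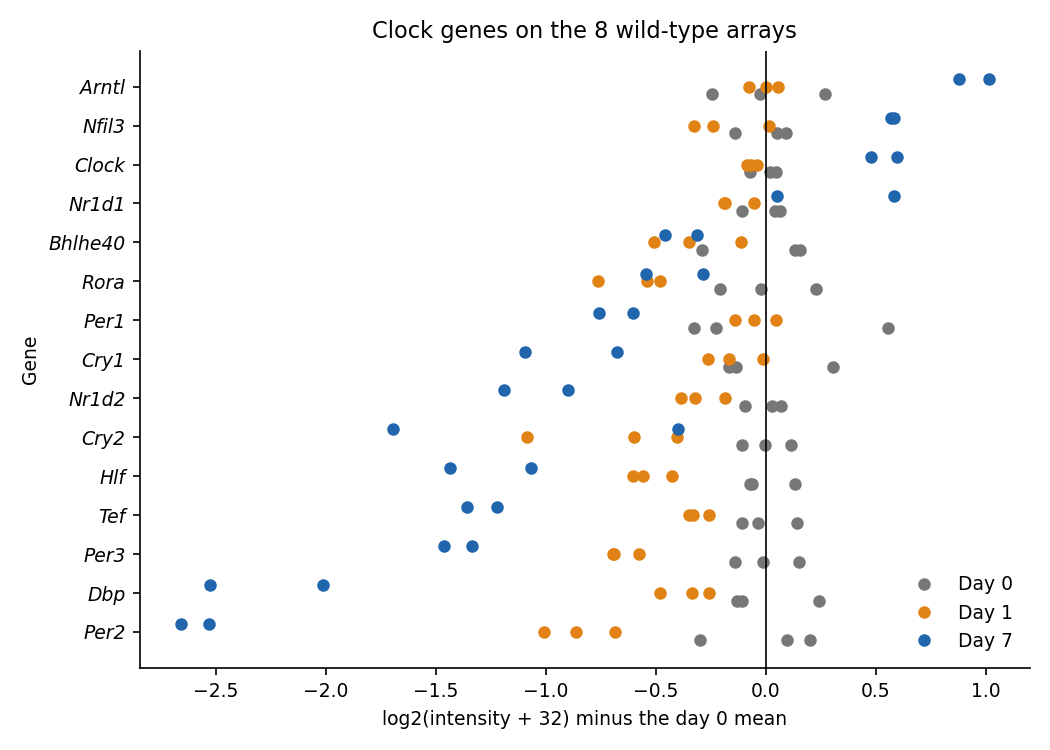
The 15 tested clock genes on the 8 wild-type arrays, as log2(intensity + 32) minus the day 0 mean, with points for arrays at day 0, day 1 and day 7. The day 7 arrays lie lowest for Per2 and Dbp and above day 0 for Arntl and Clock.

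Genes induced by glucocorticoids fell or did not pass: 7 of 18 fell, 0 rose, and the median was -0.36. Tsc22d3, the leucine zipper protein Gilz, read 2385, 2504 and 3087 at day 0, 1747, 1589.7 and 1659 at day 1, and 1011 and 1108 at day 7, a change of -1.29 ± 0.16 (limma adjusted p = 0.000152). Its arrays were ordered by day with no overlap. Fkbp5, a chaperone of the steroid receptor, changed by -0.61 ± 0.19, Zbtb16, a zinc finger repressor, by -0.998 ± 0.30, Klf9, a transcription factor, by -0.46 ± 0.11, and Dusp1, a phosphatase of MAP kinases, by -0.44 ± 0.11. Pdk4, the kinase that inhibits pyruvate dehydrogenase, changed by -1.23 ± 0.38. Per1 belongs to this list as well as to the clock. Without replicate 1 or replicate 2 of day 7, 3 and 1 of the 18 passed, without replicate 2 or replicate 3 of day 0, 3 and 2, and without scaling 2.

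Of 23 enzymes of xenobiotic metabolism 8 fell and 1 rose. Cyp2e1, a cytochrome P450 that oxidises small solvents, read 5037, 4677 and 4242 at day 0, 4231, 2755 and 1920.3 at day 1, and 1339.6 and 1376 at day 7, a change of -1.75 ± 0.24 (limma adjusted p = 0.000393). Cyp2f2, another P450, read 4419, 4913 and 5090.5 at day 0 and 1949 and 1932 at day 7 (-1.29 ± 0.14). Aldh3a1, an aldehyde dehydrogenase, changed by -0.96 ± 0.13 and Gstt1, a glutathione transferase, by -0.92 ± 0.17. The alcohol dehydrogenase Adh1 was the enzyme that rose, from 2095, 2128 and 2066 to 2678 and 3311 (0.50 ± 0.16, adjusted p = 0.0495). The Adh1 call was lost under 12 of 16 alternative settings. In the first 4 enzymes every day 7 array lay below every day 0 array. Without replicate 1 or replicate 2 of day 7, 4 and 5 of the 23 were lower, and Adh1 was lost (adjusted p = 0.077 and 0.316).

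Proliferation genes split into those of mitosis and those of DNA replication. Of 24 mitosis genes 4 rose at day 7 and 0 fell, all 24 had a positive change, and the median was 0.44. Birc5 (survivin, a part of the chromosome passenger complex) read 182, 172 and 150.4 at day 0, 348, 256 and 451 at day 1, and 259.8 and 285 at day 7, a change of 0.61 ± 0.17 (limma adjusted p = 0.027). Ube2c, which marks mitotic cyclins for degradation, changed by 0.76 ± 0.23, Ccnb2, a mitotic cyclin, by 0.63 ± 0.18, and Top2a, which untangles chromosomes, by 0.53 ± 0.16. Mki67, the proliferation antigen Ki-67, did not pass (0.36, adjusted p = 0.115). At day 1, 15 of the 24 mitosis genes were above day 0.

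By contrast 8 of 20 DNA replication genes fell by day 7 and 0 rose, with a median of -0.32. Mcm6, a subunit of the replicative helicase, read 635, 786 and 728 at day 0, 878, 798 and 814 at day 1, and 500.5 and 514 at day 7, a change of -0.47 ± 0.10 (limma adjusted p = 0.00907). Mcm2 and Mcm5, other subunits, changed by -0.63 ± 0.16 and -0.57 ± 0.16, and Pole, the catalytic subunit of the leading-strand polymerase, by -0.64 ± 0.17. Mcm5 was higher at day 1 (448, 438 and 516) than at day 0 (222, 304 and 297), and lowest at day 7 (163 and 183). From day 1 to day 7, 10 of the 20 fell, with a median of -0.56. Ccnd1, the G1 cyclin, read 1473, 1644 and 1608 at day 0 and 981 and 976 at day 7 (-0.67 ± 0.09, adjusted p = 0.000583). Pcna, the sliding clamp, did not pass (0.10).

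The counts of called proliferation genes were not stable. Without replicate 1 of day 7, 0 of the 24 mitosis genes and 0 of the 20 replication genes passed in limma (10 and 9 at an unadjusted p under 0.05). Without replicate 2 of day 7, 0 and 2 passed (9 and 10 unadjusted), and without scaling 0 and 0 (5 and 7 unadjusted). Without replicates 1, 2 and 3 of day 0, 1, 7 and 1 mitosis genes passed, and quantile normalization gave 1. Without replicate 2 or replicate 3 of day 0, 2 and 3 replication genes passed, and 2 passed with only the day 0 and day 7 groups in the fit.

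**Figure D4:**
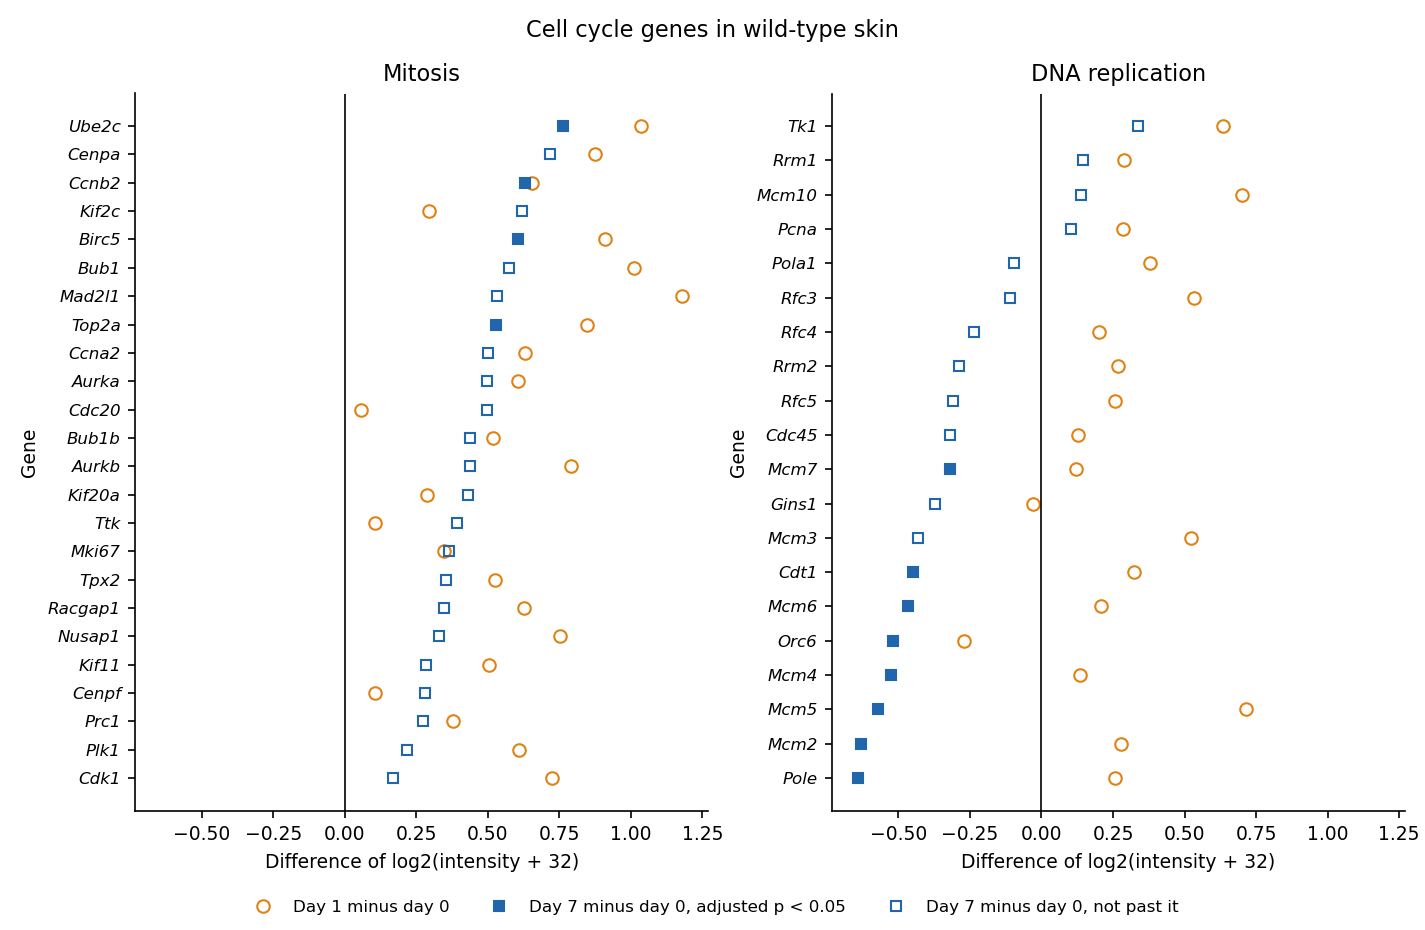
Change on the log2(intensity + 32) scale of 24 mitosis and 20 DNA replication genes in wild-type skin, from day 0 to day 1 (circles) and from day 0 to day 7 (squares), with filled symbols past the threshold. At day 7 mitosis genes lie to the right of 0, 4 of them past the threshold, and 8 replication genes lie past the threshold to the left.

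In the dermis, some collagens and other matrix genes rose and some fell, beside 5.48% of all genes called higher and 5.96% called lower. A single fall in a list of this length is about that share. Of 19 collagens 3 rose and 1 fell. Col5a3, a chain of the fibril-regulating type V collagen, read 606, 555 and 755 at day 0, 1405, 1277 and 1168 at day 1, and 2189.8 and 2287 at day 7, a change of 1.77 ± 0.19 (limma adjusted p = 3.75e-05), with no overlap between any days. Col5a2 changed by 0.76 ± 0.13 and Col1a1, the main fibrillar chain, by 0.39 ± 0.11. Col12a1, which binds the surface of fibrils, read 189, 282 and 357 at day 0 and 127.8 and 129 at day 7 (-0.90 ± 0.26). With replicate 1 of day 7 left out, Col1a1 and Col12a1 were lost (adjusted p = 0.257 and 0.167), and without replicate 2 of day 7 Col12a1 (0.133).

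Of 30 genes for elastic fibres, proteoglycans and crosslinking 7 rose and 4 fell. Thbs2, a matricellular protein that limits vessel growth, read 1064, 1336 and 1860.3 at day 0, 3392, 3780.0 and 3154 at day 1, and 3439 and 3463 at day 7 (1.30 ± 0.20, limma adjusted p = 0.00089). Vcan, the large proteoglycan versican, rose by 1.08 ± 0.14 and the collagen lysyl hydroxylase Plod1 by 0.81 ± 0.12. Fbln1, fibulin 1 of elastic fibres, read 910.4, 559 and 707 at day 0 and 392 and 339.8 at day 7 (-0.91 ± 0.16). Without replicate 1 of day 7, 3 rose and 1 fell, and without replicate 2 of day 7, 5 rose and 2 fell.

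Of 14 matrix metalloproteinases and inhibitors 2 rose and 1 fell, beside 5.48% and 5.96% of all genes. Mmp12, the macrophage metalloelastase, read 27.4, 22.5 and 15.3 at day 0, 3.15, 35.7 and 8.52 at day 1, and 127.6 and 109 at day 7, a change of 1.49 ± 0.33 (limma adjusted p = 0.00908). Mmp19 changed by 1.18 ± 0.36 and the inhibitor Timp3 by -0.76 ± 0.15, from 3166, 3653 and 4798 to 2019.5 and 2485. The Mmp19 call was lost under 10 of 15 alternative settings. With replicate 1 of day 7 left out, none of the 3 passed (adjusted p = 0.093 for Mmp12, 0.225 for Mmp19 and 0.088 for Timp3), and without replicate 2 of day 7 Mmp12 and Mmp19 were lost (0.052 and 0.139). The macrophage list, whose summed intensity is given above, was higher at day 1, when Mmp19 was higher too (1.40) and Mmp12 was not called (-0.22, adjusted p = 0.625). Its part in these results was not tested.

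The largest fall of all was in Hamp2, a hepcidin gene. It read 1912, 2247 and 1679 at day 0, 664, 1376 and 1083 at day 1, and 111 and 428 at day 7, a change of -2.94 ± 0.59 (limma adjusted p = 0.00546). The groups did not overlap, but the 2 day 7 arrays differed widely, and without replicate 1 of day 7 the call was lost (adjusted p = 0.11). Sfrp2, a secreted Wnt-binding protein of dermal fibroblasts, read 735, 513 and 1097 at day 0, 303, 369.7 and 236 at day 1, and 121 and 102 at day 7, a change of -2.44 ± 0.26 (adjusted p = 5.2e-05). Gpc3, a cell-surface proteoglycan that binds Wnt and hedgehog proteins, read 716, 541 and 580.2 at day 0 and 127 and 176 at day 7 (-1.82 ± 0.22). Both were past the threshold under every alternative setting tried.

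Other large falls were in Peli2, a ubiquitin ligase of innate immune signalling, from 71.6, 115 and 142 to 11.5 and 11.7 (-1.67 ± 0.35), and in Serpinb11, a serpin, from 1507, 1608 and 1558 to 515 and 473 (-1.60 ± 0.22). The tetraspanin Tspan4 read 1078, 923 and 1127 at day 0, 949.7, 1019 and 819.6 at day 1, and 312 and 352 at day 7 (-1.56 ± 0.13, limma adjusted p = 3.15e-06). Its day 0 and day 1 arrays overlapped. Chst1, a sulfotransferase of glycans, changed by -1.39 ± 0.24. Peli2 and Chst1 were lost without replicate 1 of day 7, with adjusted p of 0.057 and 0.054.

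Large rises outside the groups above were in Akr1cl, an aldo-keto reductase, and Agt, angiotensinogen. Akr1cl read 215, 132 and 147 at day 0, 445, 427 and 322 at day 1, and 679 and 881 at day 7, a change of 2.06 ± 0.21 (limma adjusted p = 3.43e-05). Agt read 99.6, 94.7 and 67.1 at day 0, 215, 168 and 261 at day 1, and 400.2 and 525 at day 7, a change of 2.05 ± 0.20. In both genes the 3 days did not overlap.

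Fat and muscle of the skin sample were read for the same days, beside the 5.96% of all genes called lower at day 7. Of 20 fat cell genes 1 passed, Cidec, a protein of the lipid droplet, which read 1258, 969 and 1079 at day 0 and 275 and 574 at day 7 (-1.39 ± 0.34, limma adjusted p = 0.0151), a call lost without replicate 1 of day 7 (0.24). Of 28 skeletal muscle genes 2 fell, Tcap (telethonin of the sarcomere, -0.83 ± 0.12) and Ryr1 (the calcium release channel, -0.68 ± 0.19). The median of the muscle list was 0.02, and at an unadjusted p under 0.05 4 were higher and 3 lower, so the list as a whole did not fall. The summed intensity of the muscle list was 163359 to 187520.1 at day 0, 135080.2 to 158144 at day 1 and 166483 to 191568 at day 7. Lmod2 and C1qtnf3, a muscle actin regulator and an adipokine of the C1q family, were lower at day 1 (-1.77 and -1.36). At day 7 C1qtnf3 was still below day 0 (-1.11, adjusted p = 0.0172) and Lmod2 did not pass (-0.62). Without replicate 1 of day 7 the calls of Ryr1 and C1qtnf3 were lost (adjusted p = 0.053 and 0.1), as they were without replicate 2 of day 7 (0.245 and 0.103).

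Genes of the hair follicle and of the pathways that the transgene acts on are read against the 11.4% of all genes called. Of 21 hair shaft keratins and keratin-associated proteins 0 passed in limma, of 10 inner root sheath genes 2 fell, of 13 regulators of the hair matrix and placode 2 fell, and of 15 bulge stem cell genes 2 fell. Of 14 Wnt target genes 1 rose and 2 fell, Ccnd1 among the latter, and of 7 Hedgehog pathway genes 0 passed. In the hair shaft and Hedgehog lists 0 genes had an unadjusted p under 0.05, beside 2404 of all 9058 genes. In the inner root sheath list 2 had, in the matrix and placode list 6 and in the bulge list 4, all lower. In the Wnt list 1 was higher and 4 were lower. The medians of these lists, in that order, were -0.13, -0.34, -0.13 and -0.16. Axin2, a feedback inhibitor induced by Wnt signals, read 714, 717 and 842 at day 0 and 664 and 688 at day 7 (-0.15 ± 0.10). Ctnnb1, which encodes beta-catenin, read 5466, 5751 and 5525 at day 0 and 5892 and 5307 at day 7, a change of 0.00 ± 0.08. Gli1 and Ptch1, targets of Hedgehog signalling, changed by 0.32 and -0.18. Of 14 oestrogen-responsive genes 1 rose and 2 fell, and Esr1, the oestrogen receptor gene, was low on all 5 arrays, at 13.3 to 50.0. Of 31 mitochondrial respiratory chain genes 0 passed, 0 also at an unadjusted p under 0.05, and of 22 ribosomal protein genes 1 fell.

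The transgenic arrays share no array with the wild-type comparison, so the 2 changes can be set against each other. In transgenic skin 38.7% of all genes passed between day 0 and day 7 (18.6% higher and 20.1% lower). Of the 496 genes that rose in wild-type skin, 119 rose in transgenic skin, which is 24.0% of the wild-type list and 7.07% of the 1683 transgenic rises, and 32 fell there. Of the 540 that fell in wild-type skin 298 fell in transgenic skin, which is 55.2% of the wild-type list and 16.4% of the 1819 transgenic falls, and 68 rose there. The test of whether the 2 genotypes changed by different amounts passed the threshold for 23.8% of all genes (12.1% higher and 11.7% lower in transgenic skin), for 259 of the 496 and for 214 of the 540. These last 2 counts are partly set by the choice of genes, since the wild-type change enters the difference.

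The macrophage markers that rose in wild-type skin did not pass in transgenic skin. There 0 of the 24 passed in limma, and 0 had an unadjusted p under 0.05, with a median change of 0.12, and the difference between genotypes passed for 17 of the 24, all lower in transgenic skin. Fcgr3 changed by 0.02 in transgenic skin, a difference of -1.48 ± 0.28 (limma adjusted p = 0.00166), and Mrc1 by 0.13, a difference of -1.13 ± 0.27. Of these 6 listed kallikreins 4 rose in transgenic skin, and the difference passed for 4, all lower there. Klk1 rose by 5.13 and Klk1b21 by 1.98 in transgenic skin, differences of -1.74 ± 0.41 and -2.17 ± 0.51. Klk1b27 did not pass there (0.94, adjusted p = 0.0578), and Klk6 rose by 1.41, a difference of 0.11 that did not pass (adjusted p = 0.855). Krt2 rose by 1.07 in transgenic skin, a difference of -3.25 ± 0.45 (adjusted p = 0.000147). Krt16 fell there (-0.74), a difference of -1.94 ± 0.32.

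The clock genes that fell in wild-type skin also fell in transgenic skin, except Cry1, which did not pass there (-0.13, limma adjusted p = 0.661). Per2 changed by -2.35 in transgenic skin, Dbp by -3.04, Tef by -1.46 and Per3 by -1.27, and none of these 4 differences between genotypes passed. Of the 15 clock genes 10 fell and 1 rose in transgenic skin. Arntl did not pass there (-0.03), a difference of -0.98 ± 0.25. Hamp2 (-3.32), Sfrp2 (-2.67), Tsc22d3 (-1.60) and Tspan4 (-1.78) also fell in transgenic skin with no difference past the threshold. A difference that did not pass does not show that the genotypes changed alike.

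Proliferation genes and Gpc3 differed between the genotypes. In transgenic skin 23 of the 24 mitosis genes and all 20 replication genes rose, and the difference passed for 22 and 18. Mcm5 rose by 1.49 there, a difference of 2.06 ± 0.22 (limma adjusted p = 1.96e-05), and Ccnd1 by 1.02, a difference of 1.69 ± 0.13. Gpc3 did not pass in transgenic skin (0.19), a difference of 2.01 ± 0.31. Cyp2e1 fell in both, with a change of -3.69 in transgenic skin, a difference of -1.94 ± 0.33.

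**Figure D5:**
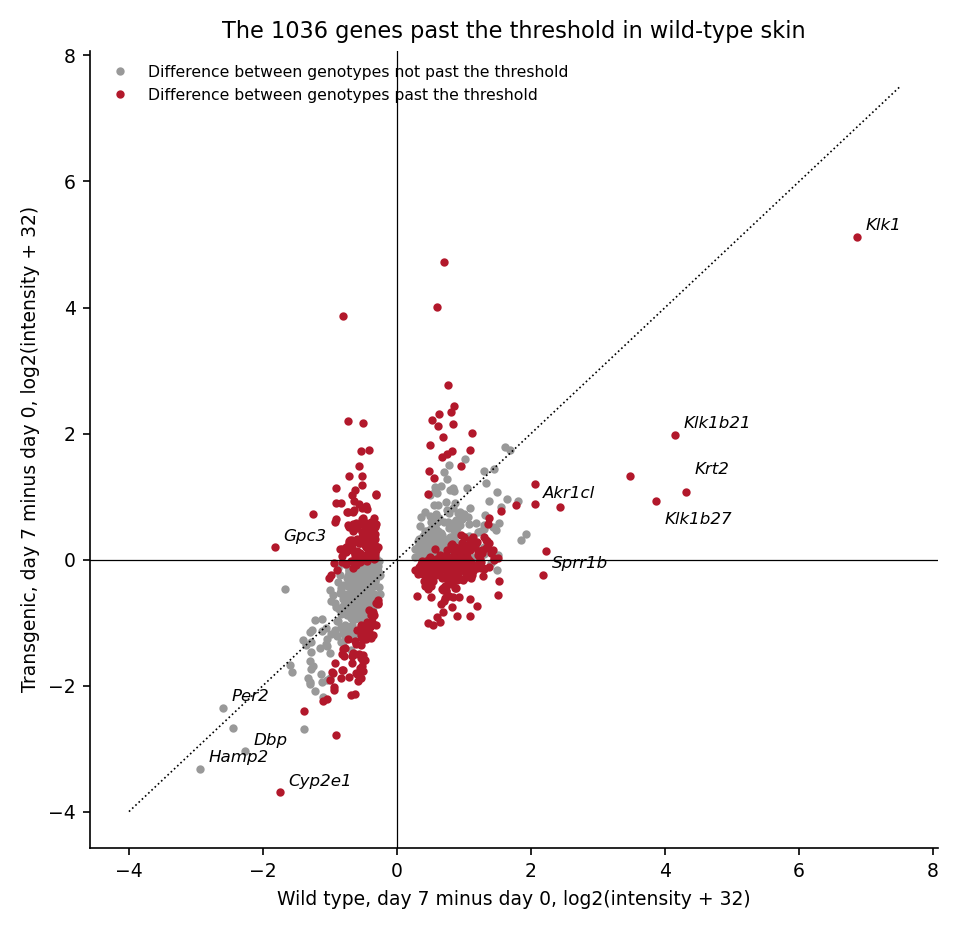
Change from day 0 to day 7 in wild-type (horizontal axis) and transgenic skin (vertical axis) of the 1036 genes past the threshold in wild-type skin, both as log2(intensity + 32). Red points are genes whose difference between genotypes passed the threshold, and the dotted line marks equal change. The genes were chosen by their wild-type change. Per2, Dbp and Hamp2 fell in both genotypes, and Krt2, Klk1, Klk1b21 and Klk1b27 lie below the line.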

How the data were processed

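Per the labels' protocols, biotinylated cRNA from total RNA of whole skin was hybridised, 1 array a sample. The authors deposited linear intensities for 22690 probe sets, including 64 control probe sets. For the summary software nothing is given in the sources used here. Detection calls, scan dates and batches were not used. The titles give each array's genotype and day.

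Trimmed means (2% removed at each end) spread by 52.6%, above a limit of 10%, so each array was scaled to a common trimmed mean and log2(intensity + 32) was taken. Probe sets above the 40th percentile on at least 2 arrays were kept. For each gene with 1 symbol in the platform annotation the probe set brightest on average was used, which left 9058 genes. Group means of all 16 arrays (6 groups, 10 residual degrees of freedom) were fitted in limma 3.58.1 (R 4.3.3) with a variance trend. There were 5 comparisons, with two-sided tests and Benjamini-Hochberg adjustment over all genes of a comparison. The fit was also run on data simulated with independent normal errors of each gene's fitted spread. Such data hold no differences in array scale, RNA quality or pooling, so nothing is read from that run about false calls from these. With 2 to 3 arrays a group, their number limits the precision. Figures were drawn with Python 3.11.15 and matplotlib 3.10.9.

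Deviations of same-numbered day 7 and day 0 arrays from their group means correlated at 0.13 and 0.05, and those of differently numbered arrays at -0.13 to 0.09. With 2 day 7 arrays the deviations are exact opposites, so these values cannot show whether arrays are paired. Replicate numbers were not used to pair them. Genes were named by a rule: at most 12 rises and 12 falls, the largest among called genes with groups that do not overlap, then at most 4 called members per list by smallest p (the 2 brightest where 0 passed), and a set of always-named genes. Klk6, Klk8, Hlf, Nr1d2, Cry1, Cry2, Clock, Arntl, Nr1d1, Rora, Nfil3, Bhlhe40, Pdk4, Zbtb16, Fkbp5, Adh1, C1qa, Csf1r, Cd68, Msr1, Itgam, Mcm5 and Pcna were named after their values were seen, where the rule did not name them. The comparison and the gene lists were chosen with earlier results of these data known. Alternatives covered scaling, the added value, the filter, probe sets, the variance trend, the arrays in the fit, the replicate number as a block, and leaving out each array. Promoter sequences are those of RefSeq on GRCm38.p6, matched by symbol.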

Additional observations from a re-analysis of the deposited data

Results flagged for a closer look

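For 49 of the 112 genes read in detail, the change from day 0 to day 7 differed between the genotypes in limma's test of that difference (adjusted p under 0.05), which 23.8% of all genes passed. Most of the 112 were named for their wild-type change, which enters that difference, so the choice of genes partly sets this count and nothing is read from it. The values below are the transgenic change minus the wild-type change on the log2(intensity + 32) scale, and their causes were not tested. For 36 genes it was lower in transgenic skin. In epidermis and gland genes the difference was -1.74 for Klk1, -2.17 for Klk1b21, -2.15 for Klk1b24, -2.93 for Klk1b27, -3.25 for Krt2, -2.42 for Sprr1b, -1.94 for Krt16, -1.60 for Aqp5 and -0.77 for Col17a1. In genes of macrophages and other myeloid cells it was -1.48 for Fcgr3, -1.01 for Ms4a7, -1.11 for Aif1, -1.13 for Mrc1, -1.13 for Itgam, -1.30 for Pf4, -1.31 for Cd68, -0.65 for Csf1r, -0.71 for Csf3r, -2.09 for Myo1f and -0.98 for Ccl12. In matrix genes it was -0.90 for Col5a3, -0.94 for Thbs2 and -0.57 for Plod1, and it was -0.53 for the integrin Itgb1. In enzymes it was -1.94 for Cyp2e1, -0.84 for Aldh3a1, -0.72 for Gstt1, -0.93 for Adh1, -1.18 for Akr1cl and -1.02 for Chst1. In muscle genes it was -1.46 for Ryr1 and -1.04 for Tcap. It was -0.86 for Agt, -0.98 for Arntl, -0.77 for Dusp1 and -0.79 for Klf9.

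For 13 genes it was higher in transgenic skin. In genes of the cell cycle the difference was 2.00 for Ube2c, 1.68 for Ccnb2, 1.51 for Birc5, 1.69 for Top2a, 1.31 for Mcm6, 2.06 for Mcm5, 1.73 for Mcm2, 1.57 for Pole and 1.69 for Ccnd1. In matrix genes it was 0.65 for Vcan, 2.04 for Col12a1 and 1.55 for Fbln1, and for the proteoglycan Gpc3 it was 2.01.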

How the results depend on the processing

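Of the 90 genes past the threshold for day 7 against day 0 that were read in detail, 39 passed under every alternative and 51 were lost under at least 1, while 0 changed sign. Without replicate 1 of day 7 43 were lost, without replicate 2 of day 7 32, and without further scaling 30. Without further scaling the number of genes called was 257 for day 7 against day 0, 74 for day 7 against day 1, 465 for day 1 against day 0, 1776 for transgenic day 7 against day 0 and 724 for the genotype difference. It moved the median change of all genes to -0.11 for day 7 against day 1, to -0.13 for transgenic day 7 against day 0 and to -0.10 for the genotype difference, and the share of calls that were higher to 82.2%, from 45.1%, for day 1 against day 0. The corresponding shares for transgenic skin were 29.3% and 48.1%, and for the genotype difference 38.8% and 50.9%. With all probe sets tested, more were called for day 1 against day 0 (3163) and transgenic day 7 against day 0 (5473), since more features were tested. With only the groups compared in the fit, 181 were called for day 7 against day 1.

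Leaving out 1 array gave 328 to 861 calls for day 7 against day 0, 35 to 212 for day 7 against day 1, 1178 to 1813 for day 1 against day 0, 2511 to 3316 for transgenic day 7 against day 0 and 1461 to 2360 for the genotype difference. Where a group was left with 1 array, that array was assumed to vary like the other groups. The replicate block gave 923 calls for day 7 against day 0, with 7 of the 90 genes lost, and 201 for day 7 against day 1. Genes near 0 at day 0 have no well-measured level there.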
